A study of Mus musculus with 20 samples.

Results

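The nuclear-encoded subunits of respiratory complexes I to III were followed in macrophages and monocytes sorted from mouse tumours. The members are the gene models whose whole symbol is Ndufa, Ndufb, Ndufc, Ndufs, Ndufv or Ndufab followed by a number. Sdha to Sdhd, every symbol that begins with Uqcr, and Cyc1 are members too. Symbols with more after the number, such as Ndufs6b and Ndufs5-ps, are not. Assembly factors named Ndufaf were left out. The rule found 52 of 36528 gene models: by name, 38 of complex I, 4 of complex II and 10 of complex III. Each of the 52 had 10 or more counts in at least 5 libraries, as had 15476 models in all, and each entered the tests. One of them, Uqcrh-ps1, is annotated as a pseudogene and was kept because it meets the rule as written.

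Complex I passes electrons from NADH to ubiquinone, complex II passes them from succinate to ubiquinone, and complex III hands them on to cytochrome c. Complexes I and III pump protons across the inner mitochondrial membrane while they do so, and complex II is also an enzyme of the tricarboxylic acid cycle. In macrophages, the balance between this respiration and glycolysis is known to differ between activation states.

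The study compared 4 groups of 5 libraries: macrophages from control tumours, macrophages from anti-PD-L1 tumours, monocytes from control tumours and monocytes from anti-PD-L1 tumours. The tumours were grown from MC38 cells, a mouse colon carcinoma line, and were taken on day 7 of treatment. Anti-PD-L1 is a checkpoint-blocking antibody directed at the PD-1 ligand. The sources used here name neither the control agent nor the strain, age and sex of the mice nor the sort gates. No label ties the 5 libraries of a group to different mice; the spread behind each p-value is that between libraries and could be technical. All control sample numbers come ahead of all treated ones, and treatment and position in that sequence cannot be told apart.

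In sum, the markers of each cell type were higher in the population that carries its label. The summed level of 9 macrophage markers was 20881 to 34564 CPM in macrophage libraries and 6486 to 9861 CPM in monocyte libraries. Of the 9, Adgre1, Apoe, C1qa, C1qb, C1qc and Mrc1 were called higher in macrophages in both kinds of tumour, while Cd68 (log2 fold change 0.21 in control and 0.0054 in treated tumours) and Csf1r (-0.0041 and -0.20, adjusted p = 0.982 and 0.169) were called in neither. For 8 monocyte markers it was 286 to 522 CPM in macrophages and 4600 to 10743 CPM in monocytes. CPM is the count scaled to a common library size, after TMM, edgeR's correction for library composition. RNA of fibroblasts was present to an uneven degree: 16 markers summed to 118 to 2648 CPM in control and 62.6 to 452 CPM in treated macrophages, and to 415 to 4153 CPM in control and 81.2 to 659 CPM in treated monocytes. Markers of T cells, NK cells, B cells, dendritic cells and endothelium reached at most 17.9, 53.7, 31.0, 67.3 and 19.1 CPM in sum, and those of neutrophils 50.5 to 125 CPM in macrophages and 193 to 577 CPM in monocytes. Epithelial and carcinoma markers stayed at or under 1.23 CPM in sum, and one of them, Cldn4, had 3 or fewer counts in every library. Library totals ran from 30191509 to 36514133 counts, of which the 52 members held 0.290% to 0.521%.

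Members of the same complexes can have quite different promoters, and 6 are shown, from members called between the cell types, as examples with an NRF1 match, a YY1 match or neither; they are not the 6 with the largest differences. Each is the 300 bases from 250 before to 50 after the annotated start, 5′ to 3′ on the gene's strand, from RefSeq on GRCm38.p6. The windows are chr6:24527641-24527940 (minus strand) for Ndufa5, chr3:51408906-51409205 (minus) for Ndufc1, chr6:126849095-126849394 (minus) for Ndufa9, chr13:74350191-74350490 (minus) for Sdha, chr10:94198785-94199084 (plus) for Ndufa12 and chr6:11907401-11907700 (minus) for Ndufa4. Capitals mark matches, on either strand, to GCGCANGCG, the motif of nuclear respiratory factor NRF1, or to AANATGGCG, the motif of YY1.
Ndufa5: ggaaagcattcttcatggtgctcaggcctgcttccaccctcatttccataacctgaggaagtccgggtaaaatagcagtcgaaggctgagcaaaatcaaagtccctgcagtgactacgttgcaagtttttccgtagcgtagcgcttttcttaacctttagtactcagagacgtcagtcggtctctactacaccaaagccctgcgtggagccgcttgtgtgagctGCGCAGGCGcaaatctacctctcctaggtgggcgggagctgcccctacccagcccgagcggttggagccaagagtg
Ndufc1: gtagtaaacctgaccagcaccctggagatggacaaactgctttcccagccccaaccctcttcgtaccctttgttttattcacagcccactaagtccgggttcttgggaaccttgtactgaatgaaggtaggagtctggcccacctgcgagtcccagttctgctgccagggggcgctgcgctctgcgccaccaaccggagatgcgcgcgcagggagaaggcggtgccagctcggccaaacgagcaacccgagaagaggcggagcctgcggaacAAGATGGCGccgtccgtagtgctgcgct
Ndufa9: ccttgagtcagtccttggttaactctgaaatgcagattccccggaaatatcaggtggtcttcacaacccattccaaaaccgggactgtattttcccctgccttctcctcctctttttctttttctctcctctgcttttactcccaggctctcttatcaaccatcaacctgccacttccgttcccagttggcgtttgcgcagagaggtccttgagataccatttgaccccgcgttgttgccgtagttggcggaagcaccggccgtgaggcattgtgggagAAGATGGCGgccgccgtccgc
Sdha: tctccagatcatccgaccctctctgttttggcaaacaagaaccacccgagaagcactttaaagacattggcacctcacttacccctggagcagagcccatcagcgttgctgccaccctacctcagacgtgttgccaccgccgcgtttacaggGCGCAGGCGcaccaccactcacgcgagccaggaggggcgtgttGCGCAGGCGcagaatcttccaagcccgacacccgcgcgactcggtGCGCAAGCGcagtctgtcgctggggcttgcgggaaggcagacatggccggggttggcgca
Ndufa12: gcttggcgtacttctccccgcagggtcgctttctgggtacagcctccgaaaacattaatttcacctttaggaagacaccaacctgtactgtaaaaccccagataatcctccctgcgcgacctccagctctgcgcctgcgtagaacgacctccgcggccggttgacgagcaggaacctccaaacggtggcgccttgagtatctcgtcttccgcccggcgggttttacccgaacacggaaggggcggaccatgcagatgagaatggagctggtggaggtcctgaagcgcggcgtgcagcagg
Ndufa4: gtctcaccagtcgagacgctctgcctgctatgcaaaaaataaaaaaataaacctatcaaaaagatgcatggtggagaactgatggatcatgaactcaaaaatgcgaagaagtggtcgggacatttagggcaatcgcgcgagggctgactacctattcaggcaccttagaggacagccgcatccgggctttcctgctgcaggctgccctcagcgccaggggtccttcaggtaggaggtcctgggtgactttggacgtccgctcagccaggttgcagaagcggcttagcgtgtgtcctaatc

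Ndufa5 held 1 NRF1 match in this window and Sdha held 3, while Ndufc1 and Ndufa9 held 1 YY1 match each, just downstream of the start. Ndufa12 and Ndufa4 held neither motif. Among the 42 members with a promoter sequence, 12 (28.6%) had an NRF1 match, against 14.1% of 11251 tested genes and 7.03% of all 27025 genes with a promoter sequence. The YY1 motif was found in 7 members (16.7%), against 5.45% of tested genes and 2.76% of all. The motif CCGGAAG of ETS family factors was in 8 members (19.0%), a share equal to the 19.0% of tested genes and above the 9.93% of all. AAGGTCA, the core motif of the oestrogen-related receptors, was in 4 members (9.52%), against 4.04% of tested genes and 5.38% of all. Motifs were searched on both strands, and overlapping matches of one motif were each counted. A match describes the letters and is not a binding site.

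Per unit of gene length, the members covered a wide range of levels. In the deposited nRPKM values, the RPKM (reads scaled for gene length and library size) divided by a size factor, means over the 20 libraries went from 14.8 for Ndufa11 to 260.3 for Ndufb1 among 49 members. Ndufb1, a small membrane-arm subunit of complex I, was the highest, followed by Uqcrh, the hinge protein of complex III, at 212 nRPKM. Ndufb4, Ndufs5 and Ndufab1 stood far below the rest at 4.0, 3.75 and 2.79 nRPKM, with 33 to 143, 35 to 110 and 46 to 167 counts per library. These 3 genes have close copies elsewhere in the genome (Ndufb4b, Ndufb4c, Ndufs5-ps and Ndufab1-ps are separate gene models), and only uniquely aligned reads were counted, so their values are uncertain. Exons of 17 members overlap a gene on the other strand, among them Ndufa9, Ndufab1, Ndufb5 and Ndufs1. No source states whether the counting used strand, so these 17 are uncertain too.

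Within each group the members tended to be high together in 1 library. The mean log2 CPM of the 52 members was 5.73 ± 0.27 in control macrophages, 5.72 ± 0.11 in treated macrophages, 5.63 ± 0.20 in control monocytes and 5.56 ± 0.14 in treated monocytes (SD, n = 5 each). Monocyte control library 4 held the highest value of its group for 47 of 52 members (90.4%), against 30.2% of all genes tested. Monocyte anti-PD-L1 library 5 did so for 46 (88.5%, against 22.4%), macrophage control library 1 for 37 (71.2%, against 30.7%) and macrophage anti-PD-L1 library 2 for 35 (67.3%, against 22.5%). Ndufs1 and Sdha, which have the longest gene models of the 52 (3.09 and 2.92 kb, from the ratio of deposited counts to nRPKM), were the only members highest in none of these 4 libraries.

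Transcripts of other multi-protein machines were highest in the same libraries. The mean log2 CPM of 79 cytosolic ribosomal protein genes was 4.53 in macrophage control library 1, against 3.82 to 4.11 in the other 4 of its group, and 4.47 in monocyte control library 4, against 3.86 to 3.95. In treated tumours it was 4.04 in macrophage library 2, against 3.67 to 3.94, and 4.16 in monocyte library 5, against 3.59 to 3.69. ATP synthase genes stood at 6.01 against 5.38 to 5.75 and at 5.66 against 5.25 to 5.53 in macrophage control library 1 and monocyte control library 4. These 2 libraries carry neighbouring sample numbers. The part of RNA quality or of sample handling in this pattern was not tested.

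**Figure D1:**
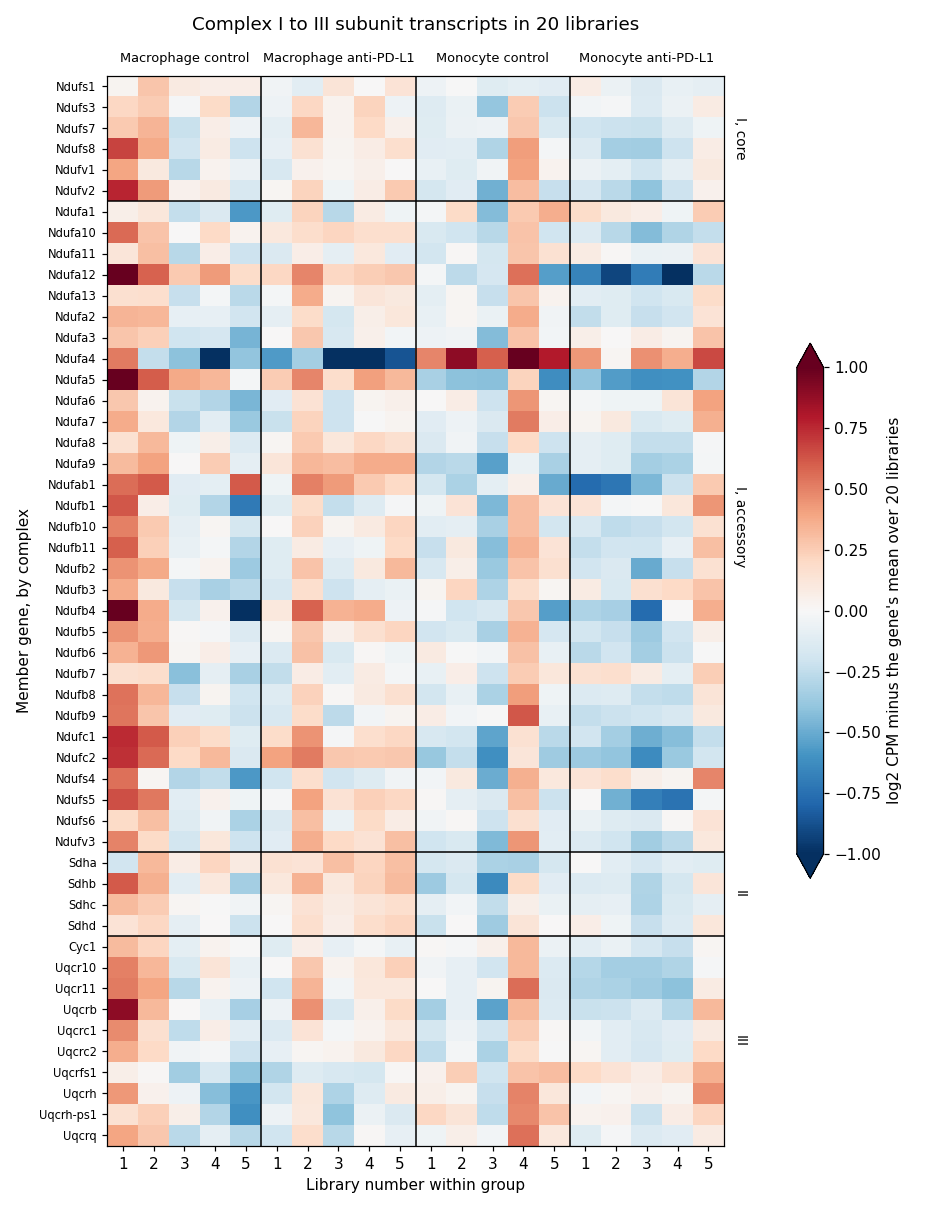
Each row is 1 of 51 members and each column 1 of the 20 libraries, in 4 groups of 5; colour gives log2 CPM minus the gene's mean over all libraries (red higher, blue lower, limited at 1 and -1). Macrophage control library 1 and monocyte control library 4 are red for most rows, and Ndufa4 is blue in most macrophage libraries. Ndufa5, Ndufa12 and Ndufc2 are red in most macrophage libraries and blue in most monocyte libraries.

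Macrophages and monocytes differed in a minority of the subunits. In control tumours 10 members were higher in macrophages (background over all genes tested, 24%) and 2 were lower (background 20%), at an adjusted p under 0.05 in edgeR's quasi-likelihood test over 15390 genes. In anti-PD-L1 tumours 14 were higher (background 28.2%) and 2 lower (background 25.7%). The share of members higher in macrophages was thus near the background, and the share lower was well under it. The median log2 fold change of the members, macrophage over monocyte, was 0.11 in control and 0.18 in treated tumours, where that of all genes was -0.0044 and -0.01. In a bulk library, fewer cells of a type and less RNA per cell cannot be told apart.

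Most calls of control tumours were also made in treated tumours. Of the members higher in macrophages, 8 were called in both, which is 80.0% of the control list and 57.1% of the treated list: Ndufa5, Ndufa9, Ndufa10, Ndufa12, Ndufab1, Ndufc1, Ndufc2 and Sdha. Ndufs1 and Ndufv2 were called in control tumours alone, and Ndufa8, Ndufb5, Ndufs5, Ndufs7, Sdhc and Uqcr10 in treated tumours alone. Both lower members, Ndufa4 and Uqcrfs1, were called in each. Whether any member differed more in one kind of tumour is the test of the difference of effects given further on, which called none.

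The counts depended on how the libraries were modelled. Sample numbers run in pairs of 1 macrophage and 1 monocyte library, and with such neighbours as a block in limma-voom the counts were 15 higher and 4 lower in control tumours (backgrounds 32.3% and 27.9%), and 24 higher and 3 lower in treated tumours (backgrounds 34.4% and 31.9%). That fit differs from edgeR's in the test as well as in the block. No member called by edgeR without the block lost its call. In control tumours the fit added to edgeR's calls Ndufa8 (0.15), Ndufb5 (0.23), Sdhb (0.35), Sdhc (0.18) and Uqcrb (0.32) as higher. Ndufa1 (-0.23) and Uqcrh-ps1 (-0.26) were added as lower, and adjusted p in that fit ran from 0.00383 to 0.0473. In treated tumours it added Ndufa13 (0.20), Ndufb2 (0.28), Ndufb6 (0.20), Ndufb10 (0.25), Ndufs8 (0.26), Ndufv2 (0.31), Ndufv3 (0.35), Sdhb (0.34), Sdhd (0.17) and Uqcr11 (0.32) as higher and Ndufs4 (-0.26) as lower, at adjusted p from 0.00312 to 0.0489. The libraries also differed in cell cycle transcripts: the mean log2 CPM of 35 such genes was 5.83 to 6.18 and 5.09 to 5.92 in control and treated macrophages, and 2.50 to 5.06 and 2.15 to 3.50 in control and treated monocytes. Macrophage and monocyte libraries did not overlap in this level, so with it as a covariate cell type and cell cycle cannot be told apart; that fit called 2 higher and 1 lower in control tumours (backgrounds 10.6% and 13%) and 0 in treated ones (backgrounds 6.48% and 9.72%). A fit of the control groups alone called 5 higher and 1 lower (backgrounds 17.9% and 15.8%), and a fit that dropped the 6 control libraries richest in fibroblast RNA called 22 higher and 3 lower in treated tumours (backgrounds 32.4% and 29.2%). DESeq2 called 8 higher and 2 lower in control tumours (backgrounds 22.6% and 22.8%) and 13 and 2 in treated ones (backgrounds 27.7% and 27.5%). Without macrophage control library 1 and monocyte control library 4 the counts were 10 and 2 in control tumours (backgrounds 25.7% and 21.1%) and 20 and 2 in treated ones (backgrounds 30.3% and 27.9%), and of the named calls Ndufab1 in control tumours was lost (0.56, adjusted p = 0.0611).

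**Figure D2:**
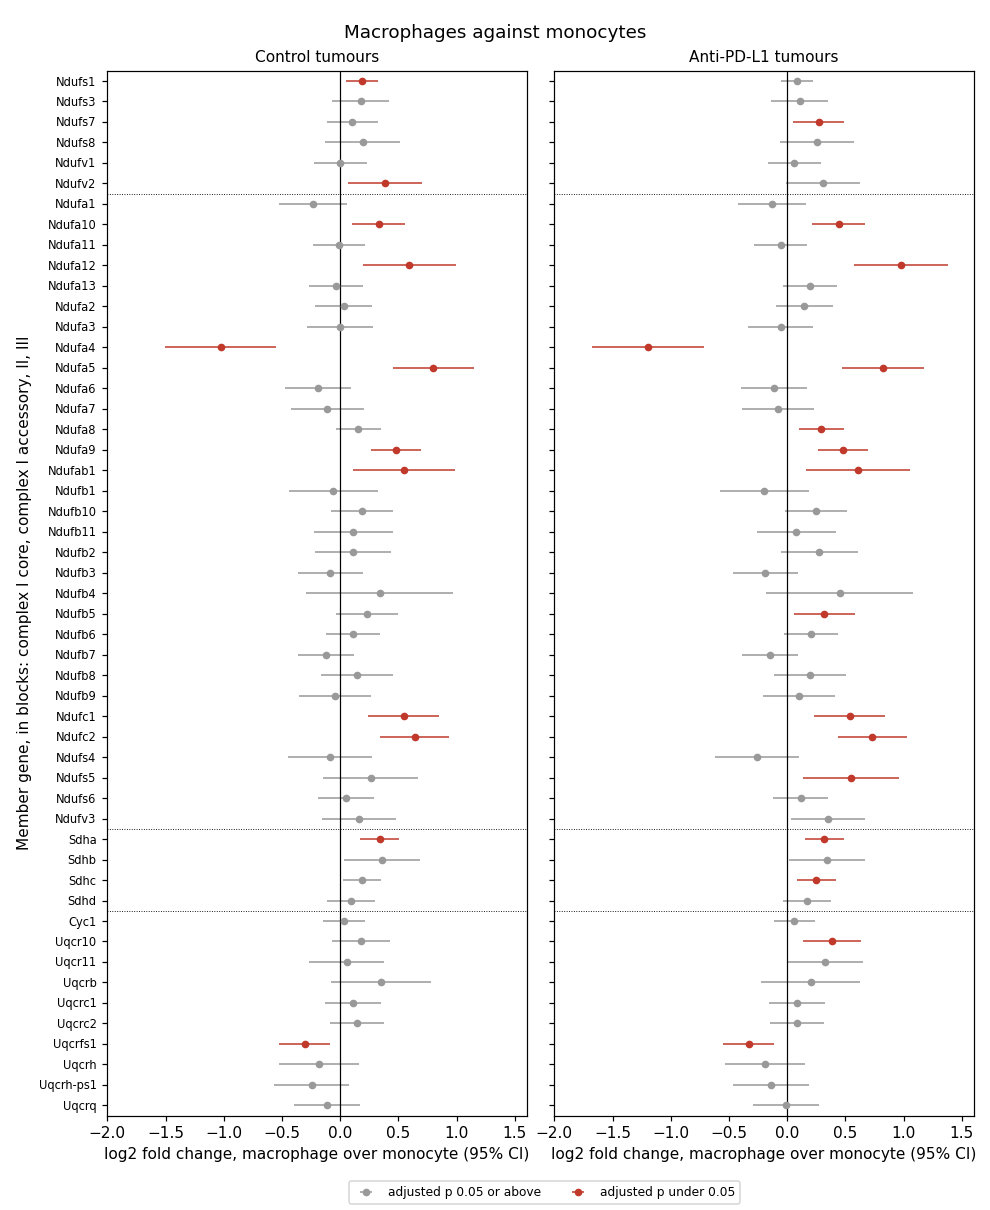
Log2 fold change of 51 members in macrophages over monocytes, with its 95% confidence interval, in control tumours (left) and anti-PD-L1 tumours (right); red points have an adjusted p under 0.05 in edgeR's test. Ndufa4 lies farthest to the left in both panels (-1.02 and -1.20), and Ndufa5, Ndufa12 and Ndufc2 lie farthest to the right among the called members.

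The catalytic core of complex I consists of the iron-sulfur and flavin subunits that bind NADH and carry electrons to ubiquinone, of which 7 are encoded in the nucleus. Their median log2 fold change was 0.18 in control and 0.11 in treated tumours. Ndufs1, the largest iron-sulfur subunit, was at 70.3, 83.6, 73.3, 72.2 and 72.2 CPM in control macrophages (libraries 1 to 5, as in all such series) and at 66.3, 68.7, 63.3, 64.3 and 63.7 CPM in control monocytes. Every macrophage value lay above every monocyte value, which held for no other member in control tumours (background 14.3% above, 10.8% below, where 0 members were). The difference was small, 0.19 (SE 0.06, adjusted p = 0.0242), and 12 of 20 fits that each left out 1 library ended the call.

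In treated tumours Ndufs1 was at 67.3, 63.9, 75.1, 69.2 and 75.6 CPM in macrophages and at 72.3, 66.2, 62.4, 65.4 and 64.6 CPM in monocytes. These overlapped, and the fold change of 0.09 (SE 0.06, adjusted p = 0.285) did not pass. Ndufv2, an iron-sulfur subunit next to the flavin site, was at 94.4 ± 24.8 CPM in control macrophages and 72.3 ± 15.0 CPM in control monocytes (SD, n = 5), a log2 fold change of 0.38 (SE 0.15, adjusted p = 0.048) that 14 of those 20 fits ended. Ndufs7, which passes electrons to ubiquinone, was called in treated tumours, 0.27 (SE 0.11, adjusted p = 0.0373), and 3 of 20 such fits ended that call.

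Ndufv1, the subunit that binds NADH and the flavin, did not differ beyond its spread. Its values were 102, 83.2, 63.9, 79.5 and 74.4 CPM in control macrophages and 73.7, 71.2, 75.7, 102 and 79.4 CPM in control monocytes. In treated tumours they were 69.4, 79.9, 78.7, 80.3 and 77.8 CPM and 74.4, 72.4, 67.6, 72.8 and 82.9 CPM. The groups overlapped in both kinds of tumour, and the 95% intervals of the log2 fold change were -0.23 to 0.23 and -0.17 to 0.29. Ndufs3 and Ndufs8, which lie on the path to ubiquinone, had log2 fold changes of 0.18 and 0.19 in control and 0.11 and 0.26 in treated tumours, neither of them called.

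The 31 accessory subunits of complex I, which surround and stabilise that core, held most of the calls and are also most of the 52 members. In control tumours 7 (22.6%, background 24%) were higher and 1 (3.23%, background 20%) was lower. In treated tumours 10 (32.3%, background 28.2%) were higher and 1 (3.23%, background 25.7%) was lower. The lower member in both was Ndufa4. It is counted here by its name, although its protein is now assigned to cytochrome c oxidase, complex IV. The shares higher were thus near the background, and the shares lower were under it. Ndufa5 (Entrez 68202, chromosome 6, 24518662 to 24527690), a subunit of the arm that projects into the matrix, was at 60.0, 43.6, 37.3, 36.2 and 28.3 CPM in control macrophages and 22.9, 21.6, 21.5, 33.4 and 18.6 CPM in control monocytes. Monocyte library 4 alone lay above macrophage library 5, and the log2 fold change was 0.80 (SE 0.17, adjusted p = 0.00064). After anti-PD-L1 it was at 34.2, 40.3, 32.3, 38.1 and 35.9 CPM in macrophages and 21.7, 19.5, 18.8, 18.8 and 23.4 CPM in monocytes. Those groups were separate, with a log2 fold change of 0.82 (SE 0.17, adjusted p = 0.000357).

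Ndufc2 (Entrez 68197, chromosome 7, 97400003 to 97407800), a small subunit of the membrane arm, showed a similar pattern. It was at 111, 99.3, 77.3, 84.2 and 60.9 CPM in control macrophages and 51.7, 56.8, 43.8, 72.9 and 52.6 CPM in control monocytes, where again monocyte library 4 lay above macrophage library 5 alone. The log2 fold change was 0.64 (SE 0.14, adjusted p = 0.00113). In treated tumours it was at 88.9, 96.3, 80.9, 80.7 and 81.1 CPM and 52.3, 51.0, 43.5, 51.9 and 59.2 CPM, without overlap, and the fold change was 0.73 (SE 0.14, adjusted p = 0.00024). Ndufc1, its neighbour in the membrane arm (Entrez 66377, chromosome 3, 51405479 to 51408955), was higher in macrophages by 0.55 (SE 0.15, adjusted p = 0.00468) in control and 0.54 (SE 0.15, adjusted p = 0.00422) in treated tumours.

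Ndufa9 (Entrez 66108, chromosome 6, 126821863 to 126849144) binds a nucleotide near the ubiquinone site. Its values were 130.3, 139, 105, 125 and 98.3 CPM in control macrophages and 85.5, 86.9, 71.8, 100.1 and 83.8 CPM in control monocytes. Treated macrophages had 114, 132, 129.9, 135 and 136 CPM and treated monocytes 98.5, 96.4, 82.6, 84.1 and 103 CPM. Macrophage control library 5 was the only macrophage library at or below the highest monocyte library of its tumours, and the log2 fold changes were 0.48 (SE 0.10, adjusted p = 0.000789) and 0.48 (SE 0.10, adjusted p = 0.000606). Its exons overlap a gene on the other strand.

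Ndufa12 (Entrez 66414, chromosome 10, 94199035 to 94221440) sits where the assembly factor Ndufaf2 is released late in the building of complex I. In control tumours its values were 40.5, 28.2, 22.5, 25.2 and 21.3 CPM in macrophages and 18.5, 15.6, 16.7, 27.6 and 12.8 CPM in monocytes, where monocyte library 4 lay above 3 macrophage libraries. The log2 fold change of 0.59 (SE 0.19, adjusted p = 0.0167) lost its call without macrophage control library 1 (0.41, adjusted p = 0.0762). In treated tumours the values were 21.7, 26.4, 21.7, 22.3 and 22.7 CPM in macrophages and 11.8, 9.94, 11.55, 9.43 and 15.6 CPM in monocytes. All macrophage values there lay above all monocyte values, and 0.98 (SE 0.19, adjusted p = 0.000301) was the highest fold change among the 52.

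Ndufa10, a membrane-arm subunit, was higher in macrophages by 0.33 (SE 0.11, adjusted p = 0.0176) in control tumours, a call that the fits without macrophage control library 1 or 2 ended (0.22 and 0.27, adjusted p = 0.0755 and 0.0555), and by 0.44 (SE 0.11, adjusted p = 0.00182) in treated ones. Ndufab1, the mitochondrial acyl carrier protein, had 0.55 (SE 0.21, adjusted p = 0.0409) and 0.61 (SE 0.21, adjusted p = 0.0209) on its low counts, and 14 of the 20 fits that left out 1 library ended the first call. Ndufa8, a disulfide-bonded protein of the intermembrane space, was called in treated tumours at 0.29 (SE 0.09, adjusted p = 0.0119), and so were Ndufb5, a membrane-arm subunit, at 0.32 (SE 0.13, adjusted p = 0.0388) and the low-count Ndufs5 at 0.55 (SE 0.20, adjusted p = 0.0247). Fits without 1 library ended the call of Ndufb5 in 3 of 20 cases and of Ndufs5 in 1, that without monocyte anti-PD-L1 library 4 (0.50, adjusted p = 0.0516).

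Ndufa4 (Entrez 17992, chromosome 6, 11900372 to 11907450) went the other way. Named for complex I, its protein is now assigned to cytochrome c oxidase, complex IV. Control macrophages had 63.6, 37.6, 33.4, 20.6 and 33.9 CPM and control monocytes 62.4, 82.4, 67.2, 95.8 and 77.1 CPM. Only macrophage library 1 reached the monocyte range. Treated macrophages had 30.03, 35.2, 19.1, 19.4 and 24.4 CPM and treated monocytes 59.9, 44.9, 61.1, 57.0 and 70.3 CPM, with no overlap. The log2 fold changes, macrophage over monocyte, were -1.02 (SE 0.23, adjusted p = 0.00115) and -1.20 (SE 0.23, adjusted p = 0.000212), the lowest of the 52 in both comparisons, and each was called in all 20 fits that left out 1 library.

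**Figure D3:**
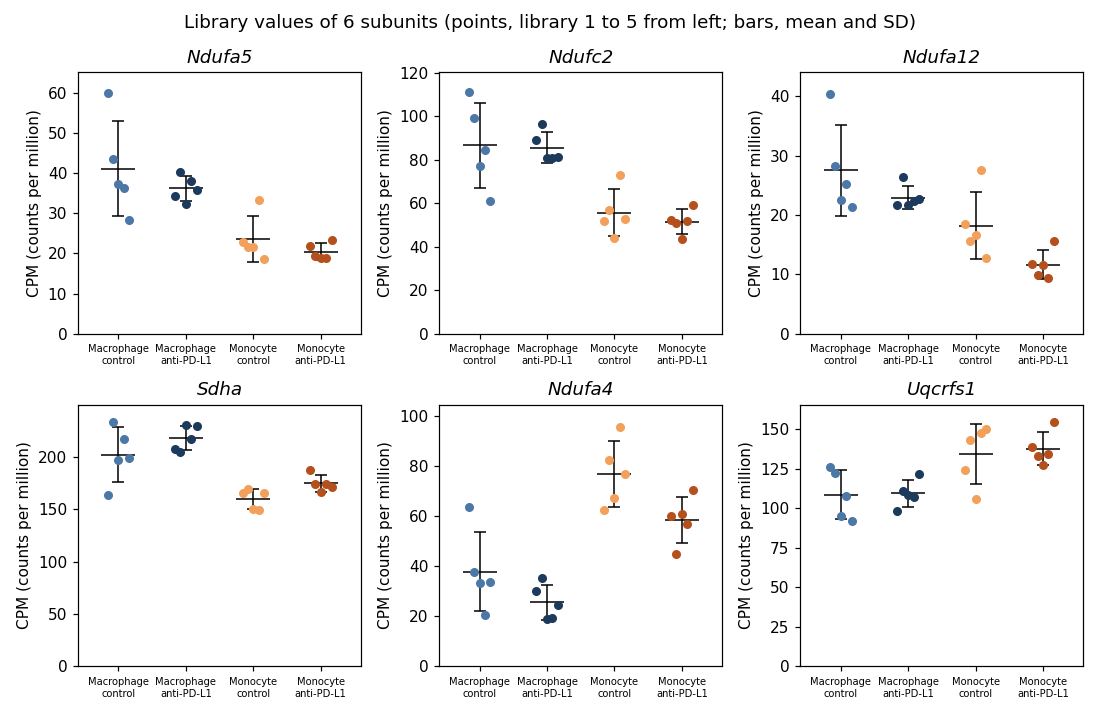
CPM in each library (points, libraries 1 to 5 from left to right in each group) with the mean and SD (bars) for 6 subunits; axes start at 0. Treated macrophages and treated monocytes are separate in all 6 panels, while in control tumours macrophage library 1 or monocyte library 4 often reaches the other cell type's range.

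The remaining accessory subunits of complex I were called in neither comparison. In treated tumours 10 members had all 5 macrophage libraries above all 5 monocyte libraries (background 25%) and 2 had all 5 below (background 22%), and these 12 were all among the called ones. Of the uncalled subunits of the matrix arm and its edge, the log2 fold changes in control and treated tumours were Ndufa2 0.03 and 0.15, Ndufa6 -0.19 and -0.11, Ndufa7 -0.11 and -0.08, Ndufs4 -0.09 and -0.26, Ndufs6 0.05 and 0.11 and, for Ndufv3, 0.16 and 0.35. Of those in or on the membrane arm, they were Ndufa1 -0.23 and -0.13, Ndufa3 -0.0032 and -0.06, Ndufa11 -0.01 and -0.06 and, for Ndufa13, -0.04 and 0.20, and in the distal part of that arm Ndufb1 -0.06 and -0.20, Ndufb2 0.11 and 0.27, Ndufb3 -0.08 and -0.19, Ndufb4 0.34 and 0.45, Ndufb6 0.11 and 0.20 and, for Ndufb7, -0.12 and -0.15, with Ndufb8 0.14 and 0.20, Ndufb9 -0.04 and 0.10, Ndufb10 0.19 and 0.25 and, for Ndufb11, 0.11 and 0.08. Values on either side of 0 occurred in each of these classes. Among them the interval of Ndufb4 was widest, -0.29 to 0.97 in control tumours.

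All 4 subunits of complex II had positive fold changes, and 1 of them was called in control (background 24% higher) and 2 in treated tumours (background 28.2%). Sdha (Entrez 66945, chromosome 13, 74322255 to 74350240) is the flavoprotein that oxidises succinate. It was at 164, 233, 196, 217 and 199 CPM in control macrophages and 165, 169, 149.8, 149 and 165 CPM in control monocytes. Macrophage library 1, in which most other members were at their highest, had the lowest Sdha of its group and lay below 3 of the 5 monocyte libraries. In treated tumours it was at 208, 205, 229.7, 217 and 229 CPM and 187, 174, 166, 174 and 171 CPM, without overlap. The log2 fold changes were 0.34 (SE 0.08, adjusted p = 0.00209) and 0.32 (SE 0.08, adjusted p = 0.00249).

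Sdhb, the iron-sulfur subunit, had control values of 257, 215, 156, 181 and 133 CPM in macrophages and 131, 149, 108, 192 and 156 CPM in monocytes. Treated values were 181, 214, 181, 197 and 209.9 CPM and 153, 154, 137, 149 and 183 CPM. The groups overlapped and fold changes as large as those of Sdha, 0.36 (SE 0.16, adjusted p = 0.0703) and 0.34 (SE 0.16, adjusted p = 0.0722), did not pass. Between neighbouring libraries macrophages were higher in Sdhb in 5 of 5 control pairs, by 0.22 to 0.53 on the log2 scale. They were also higher in 5 of 5 treated pairs, by 0.20 to 0.65. Of all genes tested, 30.8% were higher in all 5 control pairs and 33.9% in all 5 treated pairs. So were 16 and 23 of the 52 members. With the pairs as a block limma-voom called Sdhb in both (adjusted p = 0.00383 and 0.00326, backgrounds 32.3% and 34.4% higher). Sdhc, one of the membrane anchors, had 132, 126, 107, 105 and 103 CPM in control macrophages and 99.3, 104, 89.2, 109.9 and 101 CPM in control monocytes, which overlapped (log2 fold change 0.19, SE 0.08, adjusted p = 0.0582). It had 107, 117, 112, 116 and 119 CPM in treated macrophages and 99.4, 99.99, 85.2, 94.8 and 99.4 CPM in treated monocytes, which were separate (log2 fold change 0.25, SE 0.08, adjusted p = 0.0106).

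Sdhd, the other anchor, overlapped in both kinds of tumour. Its control values were 164, 173, 141, 149 and 129 CPM in macrophages and 128, 149.8, 117, 163 and 149.7 CPM in monocytes. Its treated values were 149.8, 168, 156, 169 and 173 CPM and 156, 145, 127, 136 and 162 CPM. The log2 fold changes were 0.10 (SE 0.10, adjusted p = 0.471) and 0.17 (SE 0.10, adjusted p = 0.166), and neither passed.

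Complex III had the smallest median, 0.04 in control and 0.07 in treated tumours. Uqcrfs1 (Entrez 66694, chromosome 13, 30540312 to 30545316), the Rieske iron-sulfur protein that takes electrons from ubiquinol, was lower in macrophages. Control macrophages had 126, 122, 95.1, 108 and 91.6 CPM and control monocytes 124, 143, 106, 147 and 149.8 CPM, which overlapped. Treated macrophages had 98.1, 111, 108, 107 and 122 CPM and treated monocytes 139, 133, 127, 134 and 154 CPM, which did not. The log2 fold changes were -0.30 (SE 0.10, adjusted p = 0.0235) and -0.33 (SE 0.10, adjusted p = 0.0115). Leaving out macrophage control library 3 or 5 or monocyte control library 2 or 5 ended the first call (adjusted p = 0.0544 to 0.0658), and leaving out macrophage anti-PD-L1 library 1 ended the second (-0.27, adjusted p = 0.0616).

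Cyc1, the cytochrome that receives the electron from the Rieske protein, did not differ beyond its spread. It was at 136, 126, 102, 112 and 109 CPM in control macrophages and 109.9, 108, 113, 136 and 105 CPM in control monocytes. In treated tumours it was at 100.1, 114, 103, 108 and 104 CPM and 101, 104, 96.9, 92.9 and 110.3 CPM. The groups overlapped, and the 95% intervals of the log2 fold change were -0.15 to 0.21 and -0.12 to 0.24.

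Uqcr10, a small subunit of complex III, was called in treated tumours, with 68.7, 82.3, 70.1, 73.9 and 80.8 CPM in macrophages and 56.3, 54.0, 53.9, 55.5 and 67.8 CPM in monocytes. All macrophage values lay above all monocyte values there, 0.39 (SE 0.12, adjusted p = 0.0104). In control tumours its values, 97.0, 86.0, 61.5, 74.97 and 65.1 CPM and 66.9, 64.7, 59.9, 85.7 and 62.2 CPM, overlapped (log2 fold change 0.18, SE 0.12, adjusted p = 0.243). The other members of complex III were not called, with log2 fold changes in control and treated tumours of Uqcr11 0.06 and 0.32, Uqcrb 0.35 and 0.20, Uqcrc1 0.11 and 0.09, Uqcrc2 0.15 and 0.09, Uqcrh -0.18 and -0.19 and, for Uqcrq, -0.12 and -0.01. The pseudogene Uqcrh-ps1 had -0.25 and -0.14, close to its parent Uqcrh.

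Treatment with anti-PD-L1 moved few members. In macrophages edgeR called 0 of the 52 higher (background 1.73%) and 0 lower (background 2.92%), and 1 member had an unadjusted p under 0.05. DESeq2 and limma-voom also called 0 members. Of 15390 genes, DESeq2 called 747 higher and 1131 lower, and limma-voom 148 and 43. The median log2 fold change, treated over control, was -0.02 (all genes, -0.01), and the members ran from -0.56 to 0.15. No member had all 5 treated libraries above (background 4.11%) or below (background 2.83%) all 5 control libraries. The 95% interval lay within 1.5-fold of no change for 49 of the 52, the exceptions being Ndufa4, Ndufa12 and the low-count Ndufb4, and within 2-fold for 51.

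The members nearest to the threshold in macrophages moved in different directions. Ndufa4, whose control and treated values are given above, was at 37.8 ± 15.8 CPM in control and 25.6 ± 6.96 CPM in treated libraries (SD, n = 5), a difference that did not pass (log2 fold change -0.56, SE 0.23, adjusted p = 0.135) and that passed when macrophage control library 4 was left out (-0.65, adjusted p = 0.0421). Without macrophage control library 1 it was -0.26 (adjusted p = 0.486). Ndufa13, a membrane-arm subunit also known as GRIM-19, had the highest fold change, with 102, 102, 77.5, 89.9 and 75.4 CPM in control and 89.7, 117, 92.7, 98.8 and 97.1 CPM in treated macrophages (log2 fold change 0.15, SE 0.11, adjusted p = 0.442). Ndufb6, a subunit of the distal membrane arm, had 42.8, 45.4, 34.0, 35.1 and 31.8 CPM in control and 30.6, 41.1, 30.2, 33.8 and 32.5 CPM in treated macrophages (log2 fold change -0.17, SE 0.11, adjusted p = 0.383). In both genes the groups overlapped. Ndufa12 had -0.26 (SE 0.19, adjusted p = 0.44), Sdha 0.11 (SE 0.08, adjusted p = 0.452) and Cyc1 -0.15 (SE 0.09, adjusted p = 0.316).

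**Figure D4:**
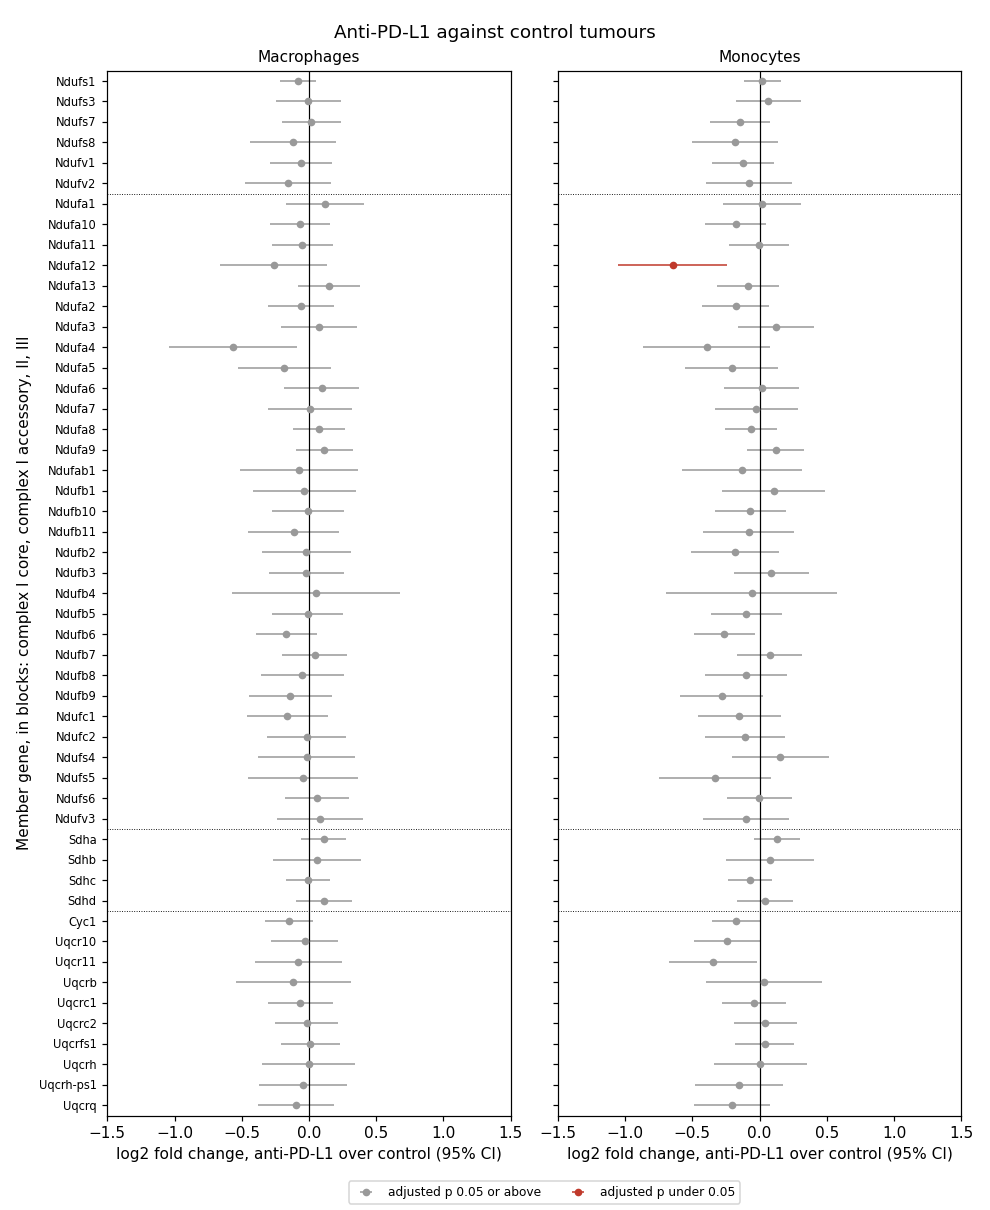
Log2 fold change of 51 members in anti-PD-L1 over control tumours, with its 95% confidence interval, in macrophages (left) and monocytes (right); red marks an adjusted p under 0.05 in edgeR's test. Most points lie near 0 in both panels, and Ndufa12 in monocytes (-0.65) is the only red one.

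The number of genes called between treated and control tumours depended on single libraries. In macrophages it was 266 higher and 449 lower with all libraries, 11 and 3 without macrophage anti-PD-L1 library 4, and 833 and 1095 without macrophage control library 4. In monocytes it was 693 and 1190 without monocyte control library 3, and 2079 and 3280 without monocyte control library 5. Without the 6 fibroblast-rich control libraries it was 64 and 6 in macrophages and 67 and 16 in monocytes, and with the fibroblast level as a covariate 1 and 1 in macrophages and 4 and 1 in monocytes.

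In monocytes, 0 members rose (background 9.92%) and 1 fell (background 15.4%). That member was Ndufa12, at 18.5, 15.6, 16.7, 27.6 and 12.8 CPM in control and 11.8, 9.94, 11.55, 9.43 and 15.6 CPM in treated monocytes. Treated library 5 lay above control library 5, so the groups overlapped; the log2 fold change was -0.65 (SE 0.19, adjusted p = 0.0218). DESeq2 and limma-voom, the latter also with neighbours as a block, called the same single member. Of 15390 genes, DESeq2 called 1696 higher and 2640 lower, limma-voom 1408 and 1377, and limma-voom with the block 1602 and 1694. The call was lost without monocyte control library 4 (-0.47, adjusted p = 0.0763), monocyte anti-PD-L1 library 2 (-0.61, adjusted p = 0.0532) or library 4 (-0.58, adjusted p = 0.0557), and in the fit of the 2 monocyte groups alone (-0.66, adjusted p = 0.0526).

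Other transcripts moved with treatment in the same monocytes. Of 35 cell cycle genes 31 fell, and the fibroblast markers were lower as given above. With the fibroblast level as a covariate the Ndufa12 fold change was -0.38 (adjusted p = 0.494), and that fit called 4 genes higher and 1 lower. With those 6 fibroblast-rich control libraries left out it was -0.31 (adjusted p = 0.456), where 67 genes were called higher and 16 lower. With the cell cycle level as a covariate it was -0.20 (adjusted p = 0.999). That last fit called 0 of 15390 genes in monocytes, so the loss of the call there is not particular to Ndufa12.

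The remaining members of the monocyte comparison did not pass. Over all 52 members the fold changes ran from -0.65 to 0.15 with a median of -0.08 (all genes, 0.02), no member had treated libraries all above (background 5.09%) or all below (background 2.13%) the control libraries, and the 95% interval lay within 1.5-fold for 46 of the 52 and within 2-fold for 51. Ndufb6 was at 35.7, 33.5, 33.0, 41.1 and 31.8 CPM in control and 27.8, 29.4, 26.5, 28.9 and 33.4 CPM in treated monocytes (log2 fold change -0.26, SE 0.11, adjusted p = 0.0851). Uqcr11, a small subunit of complex III, was at 42.6, 40.2, 43.4, 62.6 and 38.5 CPM and 34.4, 34.2, 33.2, 32.0 and 45.0 CPM (log2 fold change -0.35, SE 0.16, adjusted p = 0.107). In both, treated library 5 was the highest of its group and control library 4 the highest of its own. Each passed without monocyte anti-PD-L1 library 5 (adjusted p = 0.0434 for Ndufb6 and 0.0438 for Uqcr11) or monocyte control library 5 (adjusted p = 0.0393 and 0.0499), and Cyc1 (log2 fold change -0.18, SE 0.09, adjusted p = 0.131, with all libraries) also passed without the latter.

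Ndufb9, a subunit of the distal membrane arm, was at 89.8, 83.7, 85.1, 131 and 80.7 CPM in control and 72.2, 73.3, 74.1, 76.1 and 91.1 CPM in treated monocytes (log2 fold change -0.28, SE 0.15, adjusted p = 0.169). Control library 4 stood apart at 131 CPM, and so did treated library 5 at 91.1 CPM. The other 4 control libraries lay at 80.7 to 89.8 CPM and the other 4 treated ones at 72.2 to 76.1 CPM. Treated library 5 lay above those 4 control libraries. Ndufs4, an accessory subunit whose loss causes mitochondrial disease, had the highest fold change, with 72.7, 79.2, 52.7, 94.7 and 79.9 CPM in control and 81.7, 83.8, 77.0, 75.7 and 104 CPM in treated monocytes (log2 fold change 0.15, SE 0.17, adjusted p = 0.54). The groups overlapped. Sdha had 0.13 (SE 0.08, adjusted p = 0.254).

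Whether anti-PD-L1 acted differently on the members in the 2 cell types was tested as a difference of effects. EdgeR called 0 of the 52 and 0 of all genes (background 0%; 41 genes without monocyte control library 5, 0 of them members), and 0 members had an unadjusted p under 0.05. DESeq2 called 7 genes, 0 of them members, and limma-voom called 0 genes. The median difference was 0.06, macrophage effect minus monocyte effect (all genes, -0.02). Ndufa13 had the smallest p, 0.24 (SE 0.16, adjusted p = 0.886); its monocyte values were 85.1, 92.0, 77.7, 110.3 and 93.2 CPM in control and 84.7, 83.4, 79.1, 81.9 and 103 CPM in treated libraries. Ndufa12 had 0.38 (SE 0.27, adjusted p = 0.902), with a 95% interval of -0.19 to 0.95. Uqcr11 had 0.27 (SE 0.22, adjusted p = 0.92); its macrophage values were 60.9, 55.8, 35.1, 43.6 and 41.0 CPM and 36.9, 53.8, 41.7, 45.8 and 45.7 CPM, which overlapped. Ndufs1 had -0.10 (SE 0.09, adjusted p = 0.939), Sdhc 0.06 (SE 0.11, adjusted p = 1) and Ndufa4, with the lowest difference, -0.17 (SE 0.32, adjusted p = 1). The interval of the difference lay within 1.5-fold for 41 members and within 2-fold for 51.

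Genes that build or serve these complexes were read from lists of the pathway. Their counts stand beside the same backgrounds as those of the members: 24% of all genes were higher and 20% lower in macrophages in control tumours, and 28.2% and 25.7% in treated ones. Of 24 assembly factors of complexes I to III, 10 (41.7%) were higher and 0 lower in macrophages in control tumours, and 16 (66.7%) higher and 1 lower in treated tumours, with medians of 0.34 and 0.52. Tmem126b, a factor of the membrane arm, was higher by 0.99 (SE 0.12, adjusted p = 1.29e-06) in control tumours. Nubpl, which delivers iron-sulfur clusters to complex I, was higher by 1.15 (SE 0.18, adjusted p = 3.73e-05) in control and by 1.78 (SE 0.19, adjusted p = 2.11e-07) in treated tumours. In treated against control monocytes 3 of the 24 (12.5%, background 15.4%) fell, a share near the background, led by Ndufaf4 (-0.60, SE 0.16, adjusted p = 0.013) and Nubpl (-0.57, SE 0.18, adjusted p = 0.0299).

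Of the subunits encoded in mitochondrial DNA, 6 of complexes I and III were tested. Their fold changes in macrophages over monocytes were 0.37 to 0.82 in control and 0.43 to 0.72 in treated tumours, and 2 (33.3%) passed in each, ND1 (0.82, SE 0.28, adjusted p = 0.0211, and 0.72, SE 0.28, adjusted p = 0.0337) and ND2 (0.76, SE 0.27, adjusted p = 0.0261, and 0.66, SE 0.27, adjusted p = 0.0423). All 6 were above the median of the nuclear-encoded members in both comparisons, and that difference was not tested. Of 13 nuclear subunits of complex IV, 3 (23.1%) were higher in macrophages in each kind of tumour, which is near the background, namely Cox5a (0.33 and 0.42), Cox7a1 (0.64 and 0.78) and Cox4i2 (0.73 and 1.20), and Cox6c fell in treated monocytes (-0.48, SE 0.17, adjusted p = 0.0415). Of 18 genes of ATP synthase and its inhibitor, 2 (11.1%) were higher and 1 lower in control tumours and 5 (27.8%) higher in treated tumours, shares under and near the background, led by the inhibitor gene Atpif1 (0.77 and 0.80).

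Among 13 genes of ubiquinone synthesis, the carrier that all 3 complexes use, 7 (53.8%) were higher and 2 (15.4%) lower in macrophages in each kind of tumour. Coq7, a hydroxylase of that pathway, was higher (1.01, SE 0.16, adjusted p = 3.49e-05, and 1.29, SE 0.16, adjusted p = 1.51e-06), while Coq2, which attaches its tail, was lower (-0.62, SE 0.08, adjusted p = 6.8e-06, and -0.89, SE 0.08, adjusted p = 5.72e-08). Of 13 tricarboxylic acid cycle genes other than the members, 5 (38.5%) were higher and 2 lower in control tumours and 6 (46.2%) higher and 1 lower in treated tumours, led by Fh1, the fumarase that acts on the product of complex II (0.84, SE 0.10, and 0.87, SE 0.10). Of 78 mitochondrial ribosomal protein genes 34 (43.6%) and 43 (55.1%) were higher and 3 and 2 lower. Glycolysis differed in the other direction: of 20 genes 1 was higher and 10 (50%) lower in control tumours and 3 higher and 10 lower in treated ones, led by the lactate transporter gene Slc16a3 (-1.08, SE 0.13, and -1.23, SE 0.13).

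Regulators and inhibitors of respiration were also read from a list. Of 10 transcriptional regulators, 2 (20%, near the background) were higher and 4 (40%) lower in macrophages in control tumours. Hif1a, the hypoxia-inducible factor subunit, was lower by the most (-1.29, SE 0.16, adjusted p = 2.71e-06), followed by Esrra, an oestrogen-related receptor (-0.66, SE 0.12, adjusted p = 0.000202). In monocytes Hif1a rose with anti-PD-L1 (0.58, SE 0.16, adjusted p = 0.0149). Nos2, which makes nitric oxide, and Acod1, which makes the complex II inhibitor itaconate, rose in treated monocytes (1.69, SE 0.35, adjusted p = 0.00509, and 1.07, SE 0.30, adjusted p = 0.0164). In macrophages their fold changes of 1.06 (SE 0.35, adjusted p = 0.071) and 0.82 (SE 0.30, adjusted p = 0.1) did not pass, and the difference between the cell types did not pass either (adjusted p = 0.912 and 1). Both were lower in macrophages than in monocytes, by -1.10 and -0.96 in control tumours.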

How the data were processed

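RNA sequencing was analysed for 20 libraries, in 4 groups of 5. Per the labels' protocols, 0.1 ug of total RNA entered a stranded total RNA kit, although the molecule label names polyA RNA. Reads were aligned with GSNAP to GRCm38, per the submitters' processing notes. No source used here states the aligner version, annotation, counter or strand setting. The authors deposited, per gene model, a read count, an RPKM value and an nRPKM value (RPKM scaled by a size factor); per the file headers these are columns of one file per library. Totals ran from 30191509 to 36514133 counts, and intervals cover the spread between these libraries.

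Gene models were matched by identifier to RefSeq on GRCm38.p6 (31049 models, 85.0%, holding 97.97% of counts). Counts were filtered with filterByExpr, scaled by TMM and fitted with edgeR 4.0.16 (R 4.3.3) in one quasi-likelihood model over the 4 groups, with Benjamini-Hochberg adjustment over 15390 genes. Adjusted p-values are edgeR's unless another tool is named; error terms on log2 fold changes are standard errors, and values as mean ± SD are over 5 libraries. Mean log2 CPM used a prior count of 2. The scripts were tested on simulated data. Alternatives were DESeq2 1.42.0, its size factors in edgeR, limma-voom (limma 3.58.1), other filters, the compared groups alone, fibroblast or cell cycle covariates, and libraries left out. Python 3.11.15 was used for summaries.

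Libraries are numbered within a group in the order of the series' sample list, which pairs nothing. Sample numbers place 1 macrophage beside 1 monocyte library in 10 pairs, which the labels do not say share a tumour. The deviations of such neighbours from their group means correlated at 0.22 to 0.72 across genes. The highest correlation of a macrophage library with a monocyte library of its treatment outside the pair was 0.07 to 0.46. For macrophage control library 2 it was above the neighbour's (0.46 against 0.42), and in each other pair it was below. A limma-voom fit with these pairs as a block (consensus correlation 0.53) was an alternative. The members and lists were chosen with earlier results of these data known. Members were each given their fold change, apart from 1 that is not reported here and stays in the counts. Library values were given, in each comparison, for the 3 complex I, 1 complex II and 1 complex III members with the smallest p and the highest and lowest fold changes, and for Sdha, Sdhb, Sdhc, Sdhd, Ndufs1, Ndufv1, Cyc1 and Uqcrfs1. Promoter sequences of 10 members were not used here.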

Additional observations from a re-analysis of the deposited data

Results flagged for a closer look

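In 14 of 108 groups of 5 libraries, 1 library stood apart from the other 4: its gap to the nearest of them exceeded 0.71 of the group's whole range (Dixon's 95% critical value), a limit that chance passes in about 1 in 20 groups. The 108 groups are not independent, since a library that is high for one member tends to be high for others.

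Monocyte control library 4 was the high one for 6 members: Cyc1 at 136 CPM (the other 4 at 105 to 113), Ndufa10 at 84.0 CPM (56.9 to 62.3), Ndufb5 at 96.5 CPM (60.4 to 68.3), Ndufb9 at 131 CPM (80.7 to 89.8), Ndufs7 at 59.8 CPM (44.6 to 47.9) and Uqcr11 at 62.6 CPM (38.5 to 43.4). Monocyte anti-PD-L1 library 5 was the high one for 4: Ndufa13 at 103 CPM (79.1 to 84.7), Ndufb9 at 91.1 CPM (72.2 to 76.1), Uqcr10 at 67.8 CPM (53.9 to 56.3) and Uqcr11 at 45.0 CPM (32.0 to 34.4).

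In macrophages, anti-PD-L1 library 1 was the low one for Ndufa9 at 114 CPM (129.9 to 136) and for Ndufv1 at 69.4 CPM (77.8 to 80.3). Anti-PD-L1 library 2 was high for Ndufa12 at 26.4 CPM (21.7 to 22.7), and control library 2 was high for Ndufs1 at 83.6 CPM (70.3 to 73.3). Without that library the difference of Ndufs1 between macrophages and monocytes of control tumours was 0.10 (adjusted p = 0.256).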

How the results depend on the processing

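With neighbouring libraries paired as a replicate block, the members called between macrophages and monocytes came to 19 in control and 27 in anti-PD-L1 tumours, against 12 and 16, and no member called without the block lost its call; the members it added are named with the cell type counts. The cell cycle covariate gave 3 and 0, fitting the compared groups alone gave 6 in control tumours, and leaving out 6 fibroblast-rich control libraries gave 25 in treated tumours. For anti-PD-L1 in monocytes, the covariates, the compared groups alone and the fit without those 6 libraries each gave 0 in place of 1. Over all genes these fits differed widely. The cell cycle covariate called 0 genes, the fibroblast covariate 4 higher and 1 lower, and the fit without the 6 libraries 67 and 16. The compared groups alone called 678 higher and 1341 lower of 14485 genes. Leaving out 1 library gave 0 to 1 called members for anti-PD-L1 in macrophages, 0 to 4 in monocytes, 8 to 13 between cell types in control and 14 to 24 in treated tumours, and 0 for the difference of effects. Some uncalled differences changed sign: Sdha in macrophages with the fibroblast covariate (-0.0405) and without the 6 libraries (-0.0465), Sdha in monocytes with that covariate (-0.0204), and, for the difference of effects, Ndufs1 without macrophage control library 2 (0.0179; range -0.12 to 0.02 over single libraries) and Ndufa4 without the 6 libraries (0.27), without macrophage control library 1 (0.14; range -0.26 to 0.14) and without the pair of macrophage control library 1 and monocyte control library 4 (0.00645), an alternative chosen after seeing the data. The causes were not tested. Outside the cell cycle covariate, the median of the members stayed positive between cell types (0.01 to 0.17 in control and 0.15 to 0.27 in treated tumours). With 33 to 167 counts per library, Ndufab1, Ndufb4 and Ndufs5 had the least depth.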

Other observations

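AA467197 is the mouse counterpart of NMES1, a small mitochondrial protein related in sequence to NDUFA4. It lies outside the member rule, and was looked at after the values of Ndufa4 were seen. It stood at 323 ± 70.8 CPM in control macrophages, 396 ± 93.3 CPM in treated macrophages, 583 ± 141 CPM in control monocytes and 733 ± 153 CPM in treated monocytes (SD, n = 5). Like Ndufa4 it was lower in macrophages than in monocytes, with log2 fold changes of -0.85 (SE 0.19, adjusted p = 0.00126) in control and -0.89 (SE 0.19, adjusted p = 0.000633) in anti-PD-L1 tumours. The treatment differences of 0.30 (adjusted p = 0.38) in macrophages and 0.33 (adjusted p = 0.21) in monocytes did not pass.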
